A study of Mus musculus with 9 samples.

Results

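Goblet cells are the mucus-secreting cells of the intestinal epithelium, and 10 genes that mark them or encode what they secrete were followed in mouse colon. The genes were Muc2, Clca1, Fcgbp, Zg16, Tff3, Agr2, Spdef, Spink4, Atoh1 and Klk1, chosen by name from the 21720 genes of the deposited count table. All 10 were found once and all 10 passed the filter on low counts.

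Messenger RNA was sequenced from the colon of wild-type (WT) female mice of strain C57BL/6 J, with 3 libraries in each of 3 groups. The Atorvastatin group received atorvastatin, a statin that blocks cholesterol synthesis, by gavage at 10 mg/kg in 0.2 mL once daily over 5 days, from day 3 to day 7. Whether the Atorvastatin mice were also given dextran sulfate sodium (DSS) is not stated in the labels. The Model group was gavaged with 5% DSS, a sulfated polysaccharide widely used to cause experimental colitis in mice, over 7 days, and the Normal group with the vehicle, 0.5% CMC-Na, over 7 days. The age of the mice and the stretch of colon sampled are not given in the labels. The labels do not tie each library to a separate mouse, so p-values reflect only how far these libraries differ from each other, and that variation may be technical.

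A goblet cell arises when the transcription factor ATOH1 commits an epithelial precursor to the secretory lineages, a step held back by Notch signalling through HES1, and SPDEF then drives its maturation. The cell packs the gel-forming mucin MUC2 into granules. After release, MUC2 swells into the mucus layer that keeps bacteria off the colonic surface, together with FCGBP, CLCA1, ZG16 and the trefoil peptide TFF3. Loss of Muc2 leads to spontaneous colitis in mice. In bulk colon, fewer goblet cells and less RNA per goblet cell cannot be told apart.

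Some libraries stood apart in ways that touch these genes. Libraries held 72584300 to 91737500 estimated counts (rounded to 6 digits), and the lowest member value was 1837 estimated counts. If 1 read pair is worth about 4, an assumption made from how often low values occur, that is about 459 read pairs. The 11 measured pancreatic acinar genes took up 6.98% of all counts of Model 2 and 3.0% of those of Model 3, against at most 0.271% in the other libraries. Cela2a and Cela3b, elastases of that list, reached 9784 and 4156 CPM in Model 2 and 3658 and 1400 CPM in Model 3, and at most 220 and 124 CPM elsewhere. CPM are counts scaled to a common depth with TMM factors. Small intestinal enterocyte genes summed to 422 CPM in Model 3, against 38.5 to 263 CPM in the other libraries. Of these, Sis was at 47.0 and Lct at 50.3 CPM in Model 3, and at most 2.6 and 0.375 CPM elsewhere. Fabp2, of the same list and named after its values were seen, was at 200 CPM in Normal 1 and 23.8 CPM in Model 3. The distal colon marker Hoxb13 was at 1.29, 120 and 0.406 CPM in Atorvastatin 1 to 3, 241, 21.2 and 170 CPM in Model 1 to 3 and 25.6, 141 and 107 CPM in Normal 1 to 3. Their part in the results below was not tested, other than by leaving out libraries and acinar genes.

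Across the 10 genes, Clca1 in Atorvastatin against Normal was the difference that passed an adjusted p of 0.05. Clca1 fell 13.8-fold there. In Model against Normal 0 of 10 genes passed with edgeR's quasi-likelihood test, beside 5.46% of the 16160 genes tested. Clca1, Spdef, Fcgbp and Spink4, 4 of the 10, were lower at an unadjusted p under 0.05, beside 7.87% of all genes. DESeq2 called these 4, beside 11.8% of the genes it tested, and limma-voom called 0, beside 4.34%. In Atorvastatin against Model 0 of 10 passed and so did 0.0% of all genes. Tff3, Zg16 and Klk1 were lower there at an unadjusted p under 0.05, beside 5.85% of all genes. DESeq2 called 0 of the 10, beside 2.11% of genes, and limma-voom 0, beside 0%. In Atorvastatin against Normal 1 of 10 passed, beside 1.67% of all genes in either direction and 0.347% lower, with 5 lower at an unadjusted p under 0.05, beside 6.33%. DESeq2 called 3 (Clca1, Fcgbp and Spink4), beside 6.74%, and limma-voom called Clca1 alone, beside 0.873%.

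**Figure D1:**
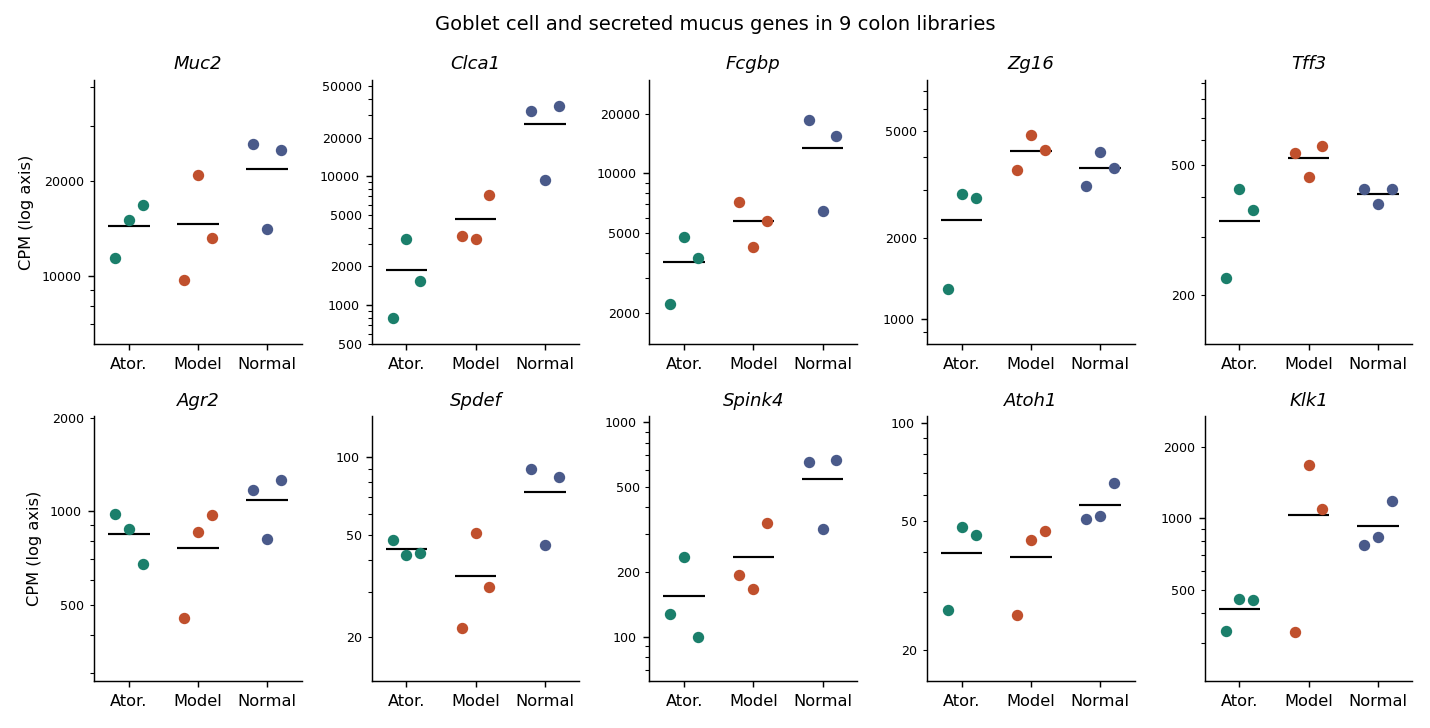
Level of each of the 10 genes in CPM (log axis) in the 3 libraries of the Atorvastatin (Ator.), Model and Normal groups; points are libraries in the order of their numbers and the line is the group mean. Normal 1 and Normal 3 lie above every Atorvastatin and Model library for Clca1, Fcgbp, Spink4, Spdef, Muc2, Agr2 and Atoh1.

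Atoh1 (chr6:64706109-64708229), the factor that commits precursors to the secretory lineages, was measured at 26.5, 47.7 and 45.0 CPM in Atorvastatin 1 to 3, 25.6, 43.6 and 46.5 CPM in Model 1 to 3 and 50.6, 51.7 and 65.5 CPM in Normal 1 to 3. Every Normal library exceeded every Atorvastatin and Model library, by a narrow margin over Atorvastatin 2. The log2 fold changes did not pass: -0.54 ± 0.27 (SE) in Model against Normal (edgeR adjusted p = 0.302), 0.04 ± 0.27 in Atorvastatin against Model (0.975) and -0.49 ± 0.27 in Atorvastatin against Normal (0.439). At this spread a change of about that size could not be separated from variation between libraries. Gene positions here are those of the deposited table, whose build is not written in it; mm39 is the mouse build in the submitters' processing notes.

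Spdef (chr17:27933326-27947929), which drives goblet cell maturation, had 47.8, 41.6 and 42.4 CPM in Atorvastatin 1 to 3, 21.7, 50.8 and 31.4 CPM in Model 1 to 3 and 89.6, 45.6 and 83.3 CPM in Normal 1 to 3. Normal 1 and Normal 3 were highest, while Normal 2 lay among the other groups, so the groups overlapped. The log2 fold change was -1.07 ± 0.32 in Model against Normal (edgeR adjusted p = 0.0946), 0.34 ± 0.32 in Atorvastatin against Model (0.735) and -0.73 ± 0.32 in Atorvastatin against Normal (0.327). Without Model 2 the first of these reached an adjusted p of 0.0403, at a log2 fold change of -1.46.

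Promoters of 6 members matched an entry in the RefSeq table of mouse build GRCm38.p6: Agr2, Atoh1, Fcgbp, Klk1, Muc2 and Spdef. Each entry runs from 250 bases before to 50 bases after the gene's start. They were searched on both strands for CAGCTG, an E-box form bound by ATOH1, and for GGATG, a form of the core bound by SPDEF and other ETS factors. No CAGCTG match overlapped a GGATG match. Capitals mark these letters below, with CATCC as GGATG on the opposite strand. Muc2, Fcgbp and Spdef are shown because each holds a match and each is a gene of which Normal 1 and Normal 3 had the most.
Muc2: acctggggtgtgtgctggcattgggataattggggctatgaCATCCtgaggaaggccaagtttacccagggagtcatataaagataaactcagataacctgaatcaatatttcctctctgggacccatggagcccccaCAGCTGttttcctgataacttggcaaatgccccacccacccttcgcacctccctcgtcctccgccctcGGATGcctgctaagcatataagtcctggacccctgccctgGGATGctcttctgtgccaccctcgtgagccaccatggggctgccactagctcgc
Fcgbp: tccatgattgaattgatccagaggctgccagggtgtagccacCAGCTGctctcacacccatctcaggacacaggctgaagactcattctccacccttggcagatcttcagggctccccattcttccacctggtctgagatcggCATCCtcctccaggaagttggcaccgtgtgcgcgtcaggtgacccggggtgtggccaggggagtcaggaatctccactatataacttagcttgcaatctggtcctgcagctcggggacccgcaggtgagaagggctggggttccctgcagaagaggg
Spdef: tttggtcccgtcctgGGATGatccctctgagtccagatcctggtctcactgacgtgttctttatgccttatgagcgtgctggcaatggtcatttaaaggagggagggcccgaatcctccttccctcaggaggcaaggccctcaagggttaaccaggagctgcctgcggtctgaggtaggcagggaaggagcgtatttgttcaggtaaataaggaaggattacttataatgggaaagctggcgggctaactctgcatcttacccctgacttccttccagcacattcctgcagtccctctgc
The Muc2 stretch is chr7:141690090-141690389 on the plus strand, the Fcgbp stretch chr7:28070986-28071285 on the plus strand and the Spdef stretch chr17:27728902-27729201 on the minus strand. CAGCTG occurred in the promoters of Muc2, starting at -112 from the start site, and Fcgbp, at -208, which is 2 of 6 members against 16.3% of 32851 promoters. GGATG occurred in Muc2, with 3 matches at -209, -44 and -4, in Fcgbp at -107 and in Spdef at -235, which is 3 of 6 members against 43.2% of promoters. TGTTTAC, a forkhead form of FOXA factors, was in 0 of 6 members and in 3.65% of promoters, and TTTATNG, a CDX form, was in Agr2 at -48 and in 10.9% of promoters. A match describes letters and is no evidence of binding.

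Muc2, the gel-forming mucin, lies at chr7:141276583-141308430 in the deposited table, a span of 31848 bases against 64352 in RefSeq GRCm38.p6, so its counts may miss reads of the gene. It had 11362, 15071 and 16762 CPM in Atorvastatin 1 to 3, 9679, 20931 and 13211 CPM in Model 1 to 3 and 26320, 14100 and 25205 CPM in Normal 1 to 3. Model 2 and Normal 2 lay on the other side of their groups, and all 3 groups overlapped. Muc2 averaged 14398 ± 2762 CPM in Atorvastatin, 14607 ± 5754 CPM in Model and 21875 ± 6756 CPM in Normal (SD, n = 3 each). As log2 fold changes, Muc2 was at -0.58 ± 0.33 in Model against Normal (edgeR adjusted p = 0.364), -0.02 ± 0.33 in Atorvastatin against Model (0.99) and -0.60 ± 0.34 in Atorvastatin against Normal (0.444). The middle value changed sign under several settings and carries no direction.

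Clca1 (chr3:144709578-144738537), a secreted metalloprotease that processes the mucus gel, differed most between libraries, by 44.3-fold between Normal 3 and Atorvastatin 1. It had 795, 3238 and 1542 CPM in Atorvastatin 1 to 3, 3440, 3255 and 7219 CPM in Model 1 to 3 and 32272, 9377 and 35183 CPM in Normal 1 to 3. All Atorvastatin libraries lay below all Model libraries, by a narrow margin between Atorvastatin 2 and Model 2 (3238 and 3255 CPM). All Model libraries lay below all Normal libraries, though Normal 2 was well below the other 2. Clca1 averaged 1858 ± 1252 CPM in Atorvastatin, 4638 ± 2237 CPM in Model and 25611 ± 14134 CPM in Normal (SD, n = 3 each). In Atorvastatin against Normal the log2 fold change was -3.78 ± 0.68 (edgeR adjusted p = 0.0297). That call was lost without Normal 1 (0.0887), Normal 3 (0.11), Model 1 (0.0503), Atorvastatin 1 (0.0934) or Atorvastatin 3 (0.124), at log2 fold changes of -3.41 to -3.78. In Model against Normal it was -2.47 ± 0.64 (0.059). It passed without Normal 2 (0.0414) and was further from the threshold without Normal 1 (0.136). In Atorvastatin against Model it was -1.32 ± 0.61 (0.443).

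Fcgbp (chr7:27770661-27820287), a large mucus protein that binds MUC2 chains, had 2219, 4774 and 3779 CPM in Atorvastatin 1 to 3, 7215, 4271 and 5770 CPM in Model 1 to 3 and 18483, 6493 and 15339 CPM in Normal 1 to 3. Every Atorvastatin library was below every Normal library, while Model 1 exceeded Normal 2. For Fcgbp the log2 fold change was -1.90 ± 0.42 in Atorvastatin against Normal (edgeR adjusted p = 0.0621). Without Normal 2 it was -2.24 (0.0311), and without Normal 1 it was -1.6 (0.164). In Model against Normal it was -1.22 ± 0.41 (0.129), and in Atorvastatin against Model -0.68 ± 0.41 (0.557). Related genes with near-identical stretches can share its reads, as can other Clca genes those of Clca1, so these counts are uncertain to that extent.

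Zg16 (chr7:126649328-126686500), a lectin-like protein that binds Gram-positive bacteria and is found in the mucus layer, had 1294, 2909 and 2807 CPM in Atorvastatin 1 to 3, 3568, 4821 and 4236 CPM in Model 1 to 3 and 3119, 4175 and 3623 CPM in Normal 1 to 3. All Atorvastatin libraries lay below all Model and all Normal libraries, and Model and Normal overlapped. The log2 fold change was -0.85 ± 0.30 in Atorvastatin against Model (edgeR adjusted p = 0.357), -0.64 ± 0.30 in Atorvastatin against Normal (0.358) and 0.21 ± 0.30 in Model against Normal (0.745), the last of which was -0.03 with Model 1 as the only Model library. Zg16 is also made by pancreatic acinar cells, and the acinar sums of its libraries were 142, 77985 and 32831 CPM in Model 1 to 3. Zg16 in Model 1, with little acinar RNA, was at 3568 CPM. With Model 1 as the only Model library, the log2 fold change in Atorvastatin against Model was -0.61. How much Zg16 RNA came from acinar cells was not tested. The table gives Zg16 a span of 37173 bases, against 2520 in RefSeq GRCm38.p6, so its counts can include reads from beyond the gene.

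Tff3 (chr17:31344280-31348620), a trefoil peptide known for aiding epithelial repair, had 225, 422 and 364 CPM in Atorvastatin 1 to 3, 546, 461 and 574 CPM in Model 1 to 3 and 424, 380 and 422 CPM in Normal 1 to 3. All Model libraries exceeded all Atorvastatin and all Normal libraries. The log2 fold change was -0.64 ± 0.22 in Atorvastatin against Model (edgeR adjusted p = 0.344), 0.37 ± 0.22 in Model against Normal (0.389) and -0.28 ± 0.22 in Atorvastatin against Normal (0.62). Zg16 and Tff3 had a positive difference in Model against Normal, with Klk1, while the other 7 genes had a negative one.

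Agr2 (chr12:36042906-36054086), an endoplasmic reticulum disulfide isomerase needed to make MUC2, had 976, 876 and 675 CPM in Atorvastatin 1 to 3, 454, 858 and 973 CPM in Model 1 to 3 and 1174, 813 and 1262 CPM in Normal 1 to 3. The 3 groups overlapped, with Model 1 lowest. None of its log2 fold changes passed: -0.51 ± 0.30 in Model against Normal (edgeR adjusted p = 0.377), 0.14 ± 0.30 in Atorvastatin against Model (0.904) and -0.36 ± 0.30 in Atorvastatin against Normal (0.635).

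Spink4 (chr4:40920052-40931395), a Kazal-type protease inhibitor of goblet cells, had 128, 236 and 99.5 CPM in Atorvastatin 1 to 3, 194, 167 and 340 CPM in Model 1 to 3 and 651, 317 and 663 CPM in Normal 1 to 3. Atorvastatin and Normal did not overlap, and Model 3 exceeded Normal 2. Spink4 had a log2 fold change of -1.81 ± 0.42 in Atorvastatin against Normal (edgeR adjusted p = 0.073), -1.22 ± 0.41 in Model against Normal (0.129) and -0.59 ± 0.41 in Atorvastatin against Model (0.617). Without Atorvastatin 2 the first reached 0.0479 at -2.27.

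Klk1 (chr7:43874784-43879042), tissue kallikrein, cleaves kininogen to release kinins and is made in colonic goblet cells and in the pancreas. It had 334, 458 and 451 CPM in Atorvastatin 1 to 3, 331, 1673 and 1093 CPM in Model 1 to 3 and 772, 833 and 1178 CPM in Normal 1 to 3. All Atorvastatin libraries lay below all Normal libraries, and Model 1 lay with Atorvastatin while Model 2 was highest of all. The acinar genes summed to 2355, 1185 and 44.3 CPM in Atorvastatin 1 to 3, 142, 77985 and 32831 CPM in Model 1 to 3 and 1463, 1486 and 167 CPM in Normal 1 to 3. The 13 Klk1b genes, close relatives chosen after their values were seen, summed to at most 2.23 CPM in Atorvastatin, 46.3 CPM in Model 2, 22.0 CPM in Model 3 and at most 2.78 CPM in Normal. Klk1 had a log2 fold change of 0.15 ± 0.47 in Model against Normal (edgeR adjusted p = 0.893), -1.32 ± 0.48 in Atorvastatin against Model (0.359) and -1.16 ± 0.48 in Atorvastatin against Normal (0.291). Leaving out Model 2 and Model 3 leaves Model 1 alone for its group (n = 1), with the spread taken from the Atorvastatin and Normal libraries and assumed to hold for it. The difference of Model 1 from Normal was then -1.49 (edgeR adjusted p = 0.0593), and that of Atorvastatin from Model 1 was 0.32. In the same fit Klk1 passed in Atorvastatin against Normal (0.0436, at -1.16).

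**Figure D2:**
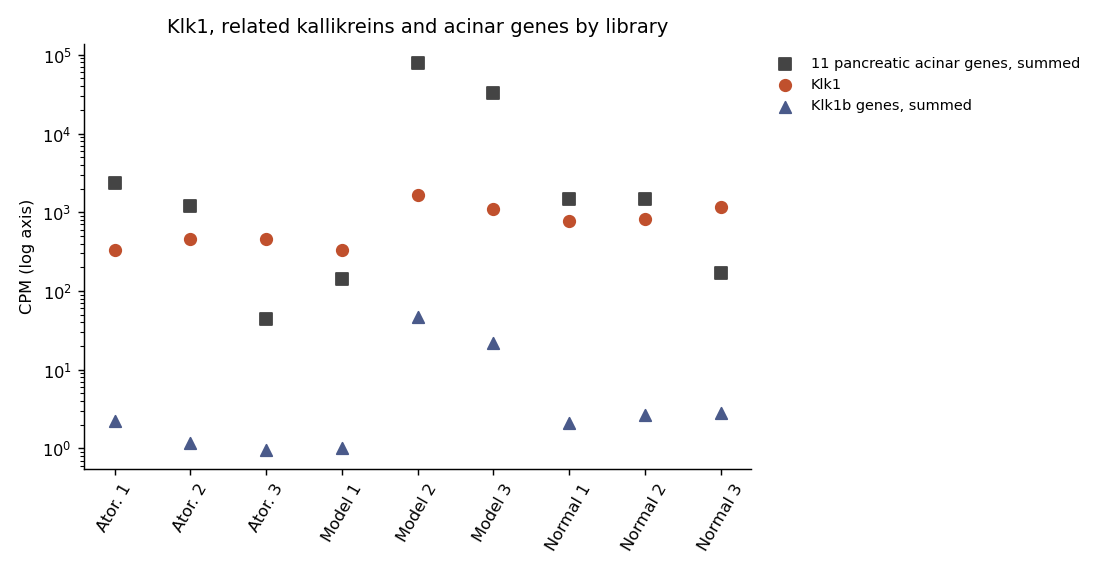
Klk1, the sum of 13 Klk1b genes and the sum of 11 pancreatic acinar genes in each library, in CPM (log axis). Model 2 and Model 3 have the highest acinar sums, 77985 and 32831 CPM, and the highest Klk1b sums.

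**Figure D3:**
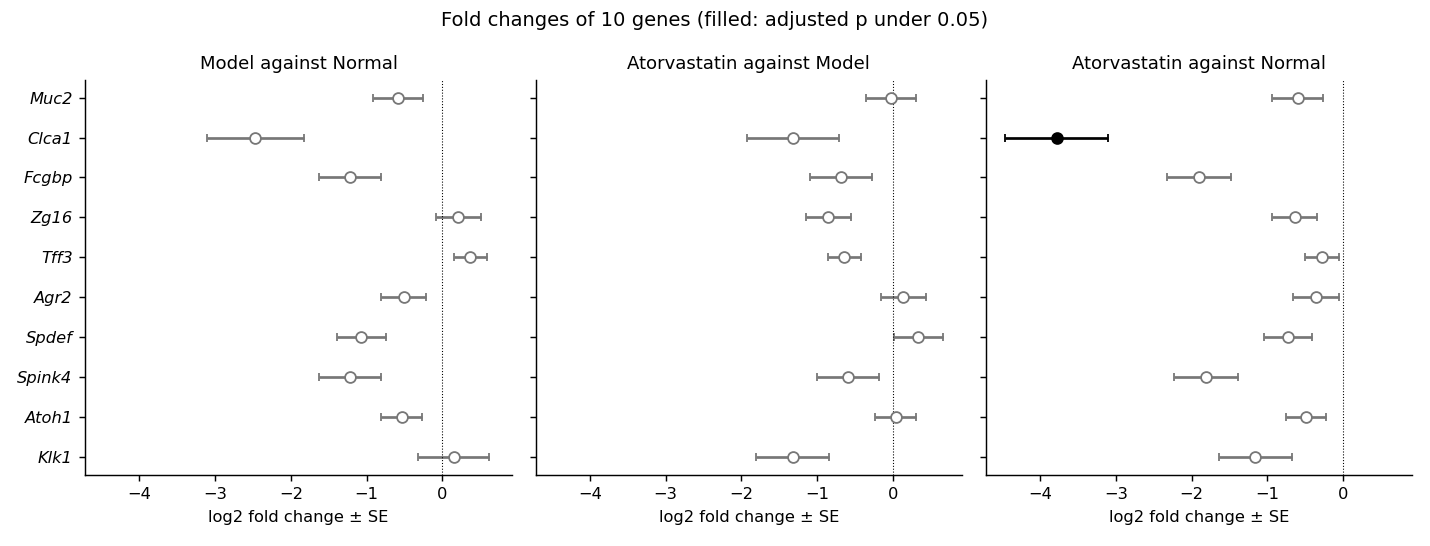
Log2 fold change ± SE of the 10 genes in Model against Normal, Atorvastatin against Model and Atorvastatin against Normal; filled points have an edgeR adjusted p under 0.05. Clca1 in Atorvastatin against Normal, at -3.78, is the filled point.

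The members' median log2 fold change was -0.56 in Model against Normal, -0.62 in Atorvastatin against Model and -0.68 in Atorvastatin against Normal, beside -0.00, -0.03 and 0.01 over all genes tested. With Model 2 and Model 3, the libraries rich in acinar RNA, left out, Model 1 alone stood for its group (n = 1). The members' median was then -1.21 for Model 1 against Normal and 0 for Atorvastatin against Model 1, the library that was lowest for 5 of the 10 genes. With all libraries, negative differences were found in 7, 7 and 10 of the 10 genes, beside 50.1%, 53.8% and 48.7% of all genes. Clca1 and Atoh1 in Model lay wholly below Normal and Tff3 wholly above it, beside 11.7% of all genes below and 14.0% above. Clca1, Zg16 and Tff3 in Atorvastatin lay below Model, Clca1 by a narrow margin, beside 7.7% of all genes. In Atorvastatin against Normal, Clca1, Fcgbp, Zg16, Spink4, Atoh1 and Klk1 lay below, beside 11.2% of all genes. The comparisons share libraries, and these counts are read only within each.

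The 10 genes held 2.0%, 2.95% and 2.86% of all counts in Atorvastatin 1 to 3, while their shares were 2.46%, 3.27% and 3.06% in Model 1 to 3 and 8.09%, 3.62% and 8.41% in Normal 1 to 3. Normal 2 was near the Model libraries, with the other 2 Normal libraries far above. The mix within the 10 genes is described without a test. Clca1 made up 4.57%, 11.5% and 5.8% of the members' counts in Atorvastatin 1 to 3, against 13.5%, 8.91% and 21.6% in Model 1 to 3, and 38.7%, 25.6% and 42.4% in Normal 1 to 3. Muc2 made up 65.3%, 53.7% and 63.1% in Atorvastatin, 38.0%, 57.3% and 39.4% in Model and 31.6%, 38.5% and 30.4% in Normal. Counts of Clca1 per count of Muc2 were 0.07 to 0.215 in Atorvastatin, 0.156 to 0.546 in Model and 0.665 to 1.4 in Normal. Normal did not overlap the other groups in that ratio. Counts depend on transcript length, so these shares compare a gene across libraries and not genes with each other. The shares and the ratio also carry the shorter table span of Muc2, which is the same for every library.

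**Figure D4:**
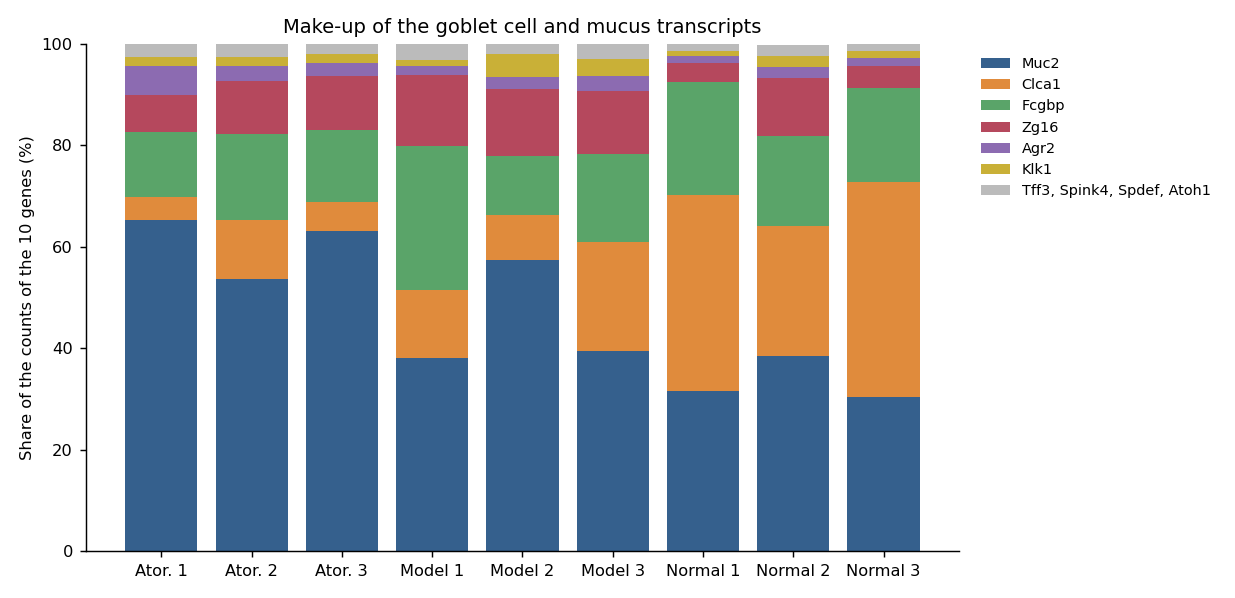
Share of the summed counts of the 10 genes held by each gene, in percent, in each library. Clca1 is 4.57% to 11.5% in Atorvastatin, 8.91% to 21.6% in Model and 25.6% to 42.4% in Normal.

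Set per kilobase of the longest annotated coding transcript, the mean level of Zg16 was 3232 in Atorvastatin, 5821 in Model and 5033 in Normal, in CPM per kilobase. Clca1 was at 508 in Atorvastatin, 1269 in Model and 7007 in Normal, as group means. Within libraries Clca1 exceeded Zg16 in Normal 1 (8830 and 4314) and Normal 3 (9626 and 5011), but not in Normal 2 (2566 and 5775) nor in any Atorvastatin or Model library. The Zg16 value divides counts over a span of 37173 bases by a transcript of 723 bases and may be too high. Agr2 was at 1074 in Atorvastatin, 972 in Model and 1381 in Normal, close to Spink4 in Normal, which was at 390 in Atorvastatin, 588 in Model and 1369 in Normal. The transcription factors were lowest, Spdef at 22.9 in Atorvastatin, 18.0 in Model and 37.9 in Normal and Atoh1 at 18.7 in Atorvastatin, 18.2 in Model and 26.4 in Normal. Muc2 was left out because its annotated models are fragments.

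Epithelial genes served as a rough measure of how much epithelium was sampled, since single genes of the list can also change. Cdx2, named after its values were seen, was at 25.3, 124 and 33.4 CPM in Model 1 to 3. It was at 117 to 193 CPM in Atorvastatin and 94.9 to 165 CPM in Normal. Epcam, an adhesion molecule of epithelium, was at 1182 to 1458 CPM in Atorvastatin, 1453 to 1496 CPM in Model and 1390 to 1605 CPM in Normal. Cdh1, E-cadherin, was at 1312 to 1738 CPM in Atorvastatin, 1846 to 2062 CPM in Model and 1355 to 1600 CPM in Normal. Of 10 such genes, 0 passed edgeR's test in any comparison. At an unadjusted p under 0.05 there were 3 in Model against Normal, beside 20.9% of all genes, 1 in Atorvastatin against Model, beside 11.8%, and 2 in Atorvastatin against Normal, beside 15.2%, all shares near those of all genes. Their sum ranged over 13955 to 17994 CPM in Atorvastatin, 16105 to 21108 CPM in Model and 16157 to 18829 CPM in Normal. Summed members over summed epithelial genes was 1.25, 1.56 and 1.56 in Atorvastatin 1 to 3, then 1.21, 1.94 and 2.08 in Model 1 to 3, with 4.47, 1.94 and 5.14 in Normal 1 to 3. Normal 1 and Normal 3 were highest, and Normal 2 lay within the range of Model, so Model and Normal overlapped.

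**Figure D5:**
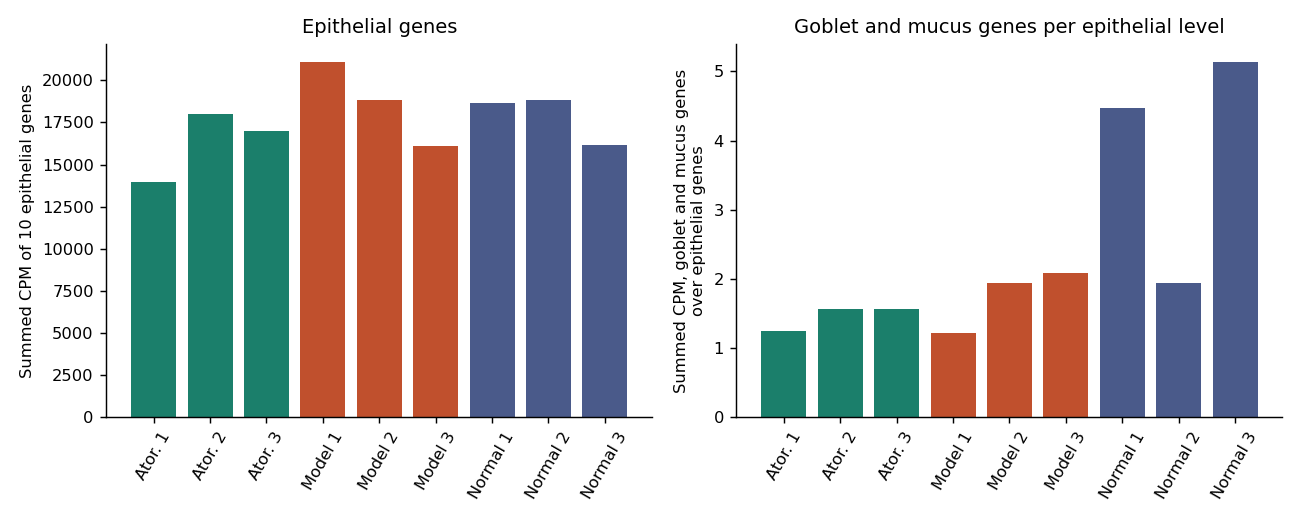
Summed CPM of 10 epithelial genes (left) and of the 10 goblet and mucus genes divided by it (right) in each library. The ratio is 1.25 to 1.56 in Atorvastatin, 1.21 to 2.08 in Model and 1.94 to 5.14 in Normal.

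Other genes of the goblet programme were read from 2 wider lists. Among 15 transcription and Notch genes, 1 fell and 0 rose in Model against Normal, beside 1.1% of all genes called lower and 4.37% called higher. At an unadjusted p under 0.05 there were 8 of the 15, beside 20.9% of all genes in either direction. Foxa3, a forkhead factor of goblet cells, averaged 33.2 ± 6.65 CPM in Model and 68.5 ± 14.0 CPM in Normal (SD, n = 3 each), a log2 fold change of -1.05 ± 0.20 (edgeR adjusted p = 0.0233). Its call was lost without Normal 1 (0.075), Normal 3 (0.0969) or Model 1 (0.0692), and with the replicate number in the model (0.0714). In Atorvastatin against Model 0 of the 15 passed edgeR's test, and 1 had an unadjusted p under 0.05, beside 11.8% of all genes in either direction. It was Hes1, the Notch effector, which averaged 24.4 ± 1.83 CPM in Atorvastatin and 15.2 ± 4.08 CPM in Model, at 0.68 ± 0.19 (0.323). In Normal Hes1 averaged 24.4 ± 2.37 CPM, level with Atorvastatin, and Model against Normal was at -0.68 ± 0.19 (0.0776). The other gene named in Atorvastatin against Model, Klf4, a goblet differentiation factor, was at -0.48 ± 0.21 (0.426). In Atorvastatin against Normal 0 of 15 passed edgeR's test, beside 1.67% of all genes, and 6 had an unadjusted p under 0.05, beside 15.2%. Foxa3 was at -0.95 ± 0.20 (0.0548) and Klf4 at -0.69 ± 0.22 (0.164). The list's medians were -0.40, 0.05 and -0.39 in Model against Normal, Atorvastatin against Model and Atorvastatin against Normal.

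Of 32 secretory pathway genes and other goblet products, 30 were tested. In Model against Normal 2 fell, beside 1.1% of all genes, 1 rose, beside 4.37%, and 27 did not pass. At an unadjusted p under 0.05 there were 11 of the 30, beside 20.9% of all genes. Ern2, an endoplasmic reticulum stress sensor of goblet cells, averaged 92.3 ± 9.55 CPM in Model, against 142 ± 15.9 CPM in Normal, with a log2 fold change of -0.62 ± 0.14 (edgeR adjusted p = 0.0414). Fer1l6, of the ferlin family, averaged 119 ± 29.3 CPM in Model and 270 ± 80.0 CPM in Normal (-1.18 ± 0.29, 0.0481). Creb3l3, a membrane-bound transcription factor, rose to 21.3 ± 4.69 CPM in Model, against 9.38 ± 2.19 CPM in Normal (1.18 ± 0.25, 0.0303). In bulk colon that rise cannot be assigned to goblet cells. The calls of Ern2, Fer1l6 and Creb3l3 were close to the threshold. Creb3l3 was lost without Normal 1, Normal 3, Model 1, Model 2 or Atorvastatin 2 (adjusted p up to 0.134), and Ern2 without any library but Atorvastatin 1 and Atorvastatin 2 (up to 0.162). Fer1l6 was lost without any library but Normal 2 and Atorvastatin 1 (up to 0.164). Ern2 and Fer1l6 were also lost in edgeR with only the 2 groups compared (0.0582 and 0.068) and with the replicate number in the model (0.089 and 0.112). Fer1l6 missed the threshold with limma-voom as well (adjusted p = 0.0577). Creb3l3 kept its call under these 3 settings, and DESeq2 called all 3 genes.

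In Atorvastatin against Model 0 of the 30 passed edgeR's test, and 5 had an unadjusted p under 0.05, a share near the 11.8% of all genes. The smallest p belonged to Rep15, a Rab15-binding protein, at -0.77 ± 0.28 (adjusted p = 0.359), and Capn8, a calpain of mucous cells of the mouse stomach, at -0.71 ± 0.27 (0.369). In Atorvastatin against Normal 2 fell, beside 0.347% of all genes, and 28 did not pass, with 11 of the 30 at an unadjusted p under 0.05, beside 15.2% of all genes. The 2 were Fer1l6, with 98.4 ± 27.2 CPM in Atorvastatin and 270 ± 80.0 CPM in Normal, at -1.45 ± 0.29 (edgeR adjusted p = 0.0458), and Capn9, a calpain, with 35.5 ± 11.5 CPM in Atorvastatin and 104 ± 37.8 CPM in Normal, at -1.55 ± 0.32 (0.0491). Fer1l6 lost its call without any library but Normal 2 and Model 2 (up to 0.161), and Capn9 without any but Normal 2 (up to 0.178). Both also missed the threshold with limma-voom (adjusted p = 0.0611 and 0.0695). In edgeR they missed it with only the 2 groups compared (0.0556 and 0.0752) and with the replicate number in the model (0.114 and 0.13). DESeq2 called both (adjusted p = 5.18e-05 and 7.25e-05). The list's medians were -0.38, -0.27 and -0.52 in Model against Normal, Atorvastatin against Model and Atorvastatin against Normal.

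Markers of other cells were read beside these genes. The 10 leukocyte genes summed to 713 to 830 CPM in Atorvastatin, 988 to 1161 CPM in Model and 288 to 494 CPM in Normal, and 7 of them were called higher in Model against Normal, beside 4.37% of all genes, and 4 in Atorvastatin against Normal, beside 1.32%. Ptprc, the leukocyte CD45 gene, averaged 90.6 ± 30.6 CPM in Atorvastatin, 120 ± 19.3 CPM in Model and 80.1 ± 42.6 CPM in Normal. Itgam, an integrin of myeloid cells, averaged 29.8 ± 20.7 CPM in Atorvastatin, 56.2 ± 13.0 CPM in Model and 10.2 ± 2.89 CPM in Normal (SD, n = 3 each). The 6 smooth muscle genes summed to 1760 to 2439 CPM in Atorvastatin, 2001 to 3910 CPM in Model and 3326 to 4702 CPM in Normal. Absorptive colonocyte genes summed to 10054 to 12938 CPM in Atorvastatin, 10875 to 13140 CPM in Model and 11425 to 16244 CPM in Normal. Enteroendocrine genes summed to 110 to 274 CPM in Atorvastatin, 199 to 449 CPM in Model and 190 to 286 CPM in Normal, and tuft cell genes to 22.2 to 45.2 CPM in Atorvastatin, 20.2 to 45.0 CPM in Model and 40.7 to 69.9 CPM in Normal. Paneth cell genes summed to at most 9.55 CPM in Atorvastatin, 124 CPM in Model 3 and 101 and 77.1 CPM in Normal 1 and Normal 3, and at most 5.78 CPM in the other libraries. Itln1, in that list, had 90.9, 2.02 and 74.8 CPM in Normal 1 to 3 and 14.7 CPM in Model 3. It thus made up most of the sum in Normal 1 and Normal 3, but not in Model 3. The defensin genes Defa24 and Defa30, of the same list and named after their values were seen, differed from Itln1. They were at 33.9 and 13.6 CPM in Model 3 and at 0 CPM in every Normal library. The high sums of these 3 libraries therefore came from different genes of the list. Lyz1, the Paneth cell lysozyme gene, was at most 2.56 CPM in Atorvastatin, 47.7 CPM in Model 3 and at most 8.35 CPM in the other libraries. Of the first genes of the remaining lists, Slc26a3, an absorptive anion exchanger, averaged 298 ± 187 CPM in Atorvastatin, 700 ± 226 CPM in Model and 998 ± 215 CPM in Normal (SD, n = 3 each). Car1, a colonocyte carbonic anhydrase, averaged 2175 ± 1417 CPM in Atorvastatin, 538 ± 343 CPM in Model and 894 ± 378 CPM in Normal. Among muscle genes Acta2 averaged 440 ± 18.4 CPM in Atorvastatin, 553 ± 97.9 CPM in Model and 642 ± 92.6 CPM in Normal, and Myh11 averaged 639 ± 260 CPM in Atorvastatin, 812 ± 313 CPM in Model and 1363 ± 176 CPM in Normal. The enteroendocrine granin gene Chga was at 9.11 to 46.8 CPM in Atorvastatin, 19.3 to 60.1 CPM in Model and 25.8 to 36.3 CPM in Normal, and Chgb at 53.8 to 160 CPM in Atorvastatin, 62.2 to 172 CPM in Model and 102 to 133 CPM in Normal. The tuft cell genes Dclk1 and Pou2f3 averaged 18.0 ± 5.04 and 0.603 ± 0.357 CPM in Atorvastatin, 16.7 ± 5.4 and 0.654 ± 0.312 CPM in Model and 26.5 ± 5.7 and 2.28 ± 0.616 CPM in Normal. Hoxa13, a posterior position gene, averaged 20.2 ± 12.7 CPM in Atorvastatin, 30.3 ± 2.17 CPM in Model and 30.6 ± 4.5 CPM in Normal. The part of these markers in the members' results was not tested.

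The pattern most like the mean of the 10 genes, over the 9 libraries on standardised log2 CPM, belonged to P2rx4, Ramp1, Hepacam2, Prkaa2, Dgkh and Fer1l6 among 11319 genes with a mean of at least 5 CPM. Their root mean square distances were 0.28, 0.30, 0.35, 0.35, 0.36 and 0.37, and those of the members ran from 0.35 for Clca1 to 0.99 for Tff3. Hepacam2 had 74.3, 103 and 92.5 CPM in Atorvastatin 1 to 3, 72.4, 106 and 128 CPM in Model 1 to 3 and 130, 131 and 177 CPM in Normal 1 to 3. Model 1 and Atorvastatin 1 were lowest. Among the members Model 1 was the lowest library for 5 genes, Atorvastatin 1 for 4 and Atorvastatin 3 for 1.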

How the data were processed

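Colon RNA (1.3 µg of total RNA per library) was sequenced, per the labels' protocols. The submitters' processing notes name bcl2fastq 2.0, HISAT2, StringTie and DESeq2 and the builds mm39 and rn6, without roles. The authors deposited unscaled whole-number estimated counts, in which 4 occurs 1997 times and 1 only 346 times. Gene positions are the table's own. Its build is not written there; mm39 is the mouse build in the notes. For the promoters RefSeq GRCm38.p6 was used, and lengths come from GENCODE M21.

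Members and lists were chosen with earlier results of these data known. In R 4.3.3 with edgeR 4.0.16, filterByExpr left 16160 genes (3481 of 21720 had 0 counts throughout). Libraries were TMM-scaled and a quasi-likelihood model with group alone was fitted to all 9. Tests were two-sided, Benjamini-Hochberg adjusted over the 16160 genes, with 0.05 as threshold. SE is the size of the log2 fold change over the square root of F. Standardised log2 CPM used a prior count of 2. The script was tested on simulated data. With 4 estimated counts per read pair assumed, counting error at the lowest member value is 4.67%. Chi-square per gene between libraries of a group was then 40.3 to 281, so none agreed within counting noise.

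Named are all members, in each wider list the genes past the threshold (or the 2 with the smallest p), the first 2 genes of each marker list and the 6 genes most like the members. Alternatives were DESeq2 1.42.0, its size factors, upper-quartile scaling, no filter, limma-voom (limma 3.58.1), only the 2 groups compared, counts divided by 4, no acinar genes, a replicate block, and leaving out libraries. Ctrc was not analysed here. Figures used matplotlib 3.10.9.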

Additional observations from a re-analysis of the deposited data

How the results depend on the processing

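With 3 libraries a group, calls near the threshold moved easily, and the cause was not tested. Counts below are members called and then genes called with an adjusted p under 0.05. DESeq2 gave 4 and 1973 in Model against Normal, 0 and 317 in Atorvastatin against Model and 3 and 1083 in Atorvastatin against Normal. limma-voom called 141 genes in Atorvastatin against Normal. With only the 2 groups compared, 474 genes were called in Model against Normal, and 2 members (Clca1 and Klk1) in Atorvastatin against Normal. Leaving out each library in turn gave 0 to 1 members and 164 to 1164 genes in Model against Normal, 0 members and 0 to 1 genes in Atorvastatin against Model, and 0 to 2 members and 17 to 382 genes in Atorvastatin against Normal. Over all alternatives Clca1 in Atorvastatin against Normal stayed at -4.47 to -3.41 on the log2 scale, with an adjusted p of 2.26e-06 to 0.124.

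Without Model 2 and Model 3 together, Model 1 alone is the Model group (n = 1) and the spread comes from the Atorvastatin and Normal libraries, so the values describe that library. There, 476 genes were called and the members' median was -1.21 in Model against Normal, with Zg16 at -0.03 and Klk1 at -1.49. In Atorvastatin against Model the median was then 0, with Muc2 at 0.57 and Klk1 at 0.32, and in Atorvastatin against Normal 2 members were called. Members over epithelial genes, as a log2 difference of group means, stayed at -1.56 to -0.62 in Model against Normal and at -1.73 to -1.02 in Atorvastatin against Normal, and ran from -0.51 to 0.26 in Atorvastatin against Model. Muc2, Clca1 and Fcgbp held most of the members' sum in every library. The -0.62 came with means of log2 CPM in place of sums, which weight the genes equally. Members less epithelial genes were then at -0.65, -0.28 and 0.22 in Model 1 to 3 and 0.47, -0.06 and 0.74 in Normal 1 to 3. Signs also turned for log2 fold changes near 0. Muc2 in Atorvastatin against Model was 0.02 with upper-quartile scaling, 0.03 with limma-voom and -0.25 to 0.33 on leaving out libraries, where Agr2 was -0.12 to 0.36 and Atoh1 -0.18 to 0.28. Klk1 in Model against Normal was -0.1 with limma-voom and -0.38 to 0.58 on leaving out libraries.

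Deviations of libraries with the same number correlated at -0.279 to 0.229, and those with different numbers at -0.232 to 0.259. These ranges gave no sign of pairing. They cannot exclude it, since deviations from a mean of 3 libraries are tied to each other. With the replicate number as a replicate block, 402 genes were called in Model against Normal and 104 in Atorvastatin against Normal, with 0 members there (Clca1 at an adjusted p of 0.0985), and Klk1 in Model against Normal was -0.04.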

Other observations

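Retnlb and Tff2, taken from the wider lists and named after their values were seen, varied widely between libraries of a group. Retnlb, an antimicrobial protein of goblet cells, had 333, 146 and 262 CPM in Atorvastatin 1 to 3, 54.0, 429 and 102 CPM in Model 1 to 3 and 1939, 107 and 796 CPM in Normal 1 to 3. Tff2, a trefoil peptide, had 4.52, 2.52 and 0 CPM in Atorvastatin 1 to 3, 0.0944, 134 and 70.1 CPM in Model 1 to 3 and 3.49, 2.58 and 0 CPM in Normal 1 to 3. Retnlb was highest in Normal 1 and Normal 3, and Tff2 in the libraries with the most acinar RNA.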
